A study of Bos indicus with 12 samples.

Results

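Splicing factor genes were described in blood RNA of 12 Bos indicus cows. They were the genes whose symbol begins with SRSF, HNRNP, SNRP, SF3A, SF3B or PRPF followed by the number or letter of the family member. The gene table used for names holds 64 such symbols, and 59 of them had a row among the 26229 identifiers of the count table. All 59 were among the 15420 genes past the filter on low counts: 10 SRSF, 20 HNRNP, 10 SNRP, 9 SF3 and 10 PRPF genes. SRSF12, SNRPB2, SNRPN and PRPF38B were among those not analysed here.

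The cows were females of the breeds Gir and Shweta Kapila, in the second or the third lactation, and were sorted within each breed into high-yielding and low-yielding animals by their lactation records. This gave 4 groups of 3 cows: Gir high, Gir low, Shweta Kapila high and Shweta Kapila low. Each library is a separate cow, and no milk yields are given. The labels call the material peripheral blood mononuclear cells and name a whole-blood RNA kit.

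Splicing removes introns from pre-mRNA in the spliceosome, which is built from small nuclear ribonucleoprotein particles and many further proteins. SNRP genes encode the Sm ring that surrounds the small nuclear RNAs and a few particle-specific proteins. SF3A and SF3B proteins belong to the particle that recognises the branch point, and PRPF proteins build, activate and remodel the assembled spliceosome. SR proteins (SRSF) bind exonic enhancers and favour exon inclusion, while heterogeneous nuclear ribonucleoproteins (HNRNP) coat nascent RNA and often repress exons. In lymphocytes of human and mouse this balance sets the isoforms of surface molecules such as CD45.

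Levels are given as normalised counts (CPM, relative to the scaled library size), and differences as log2 fold changes with their standard error (SE). Library totals ran from 14.2 to 27.2 mega-counts (M). All Gir libraries lay below 22 M, and 3 libraries lay above it, at 27.2 M for the cow Shweta Kapila high 3, 25.9 M for low 1 and 22.7 M for low 2. A set of 37 unnamed short identifiers held 4.54% to 13.1% of the counts of a library. Its share was 9.00%, 13.1% and 11.7% in those 3 libraries and 4.54%, 4.72% and 5.57% in Shweta Kapila high 1, high 2 and low 3. T cell markers summed to between 1830 and 5260 CPM per library and B cell markers to between 565 and 2410 CPM. Neutrophil markers summed to between 1280 and 4240 CPM, with the receptor CSF3R at 479 CPM or more in every library. Of the same list MMP9 stood at 3.52 to 22.1 CPM and LTF at 0.0543 to 3.25 CPM, and FCGR3B and CAMP were not measured. Whether these transcripts came from cells other than the labelled mononuclear cells was not tested. In bulk blood RNA, fewer cells of a type and less RNA per cell cannot be told apart.

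HNRNPH1 (identifier 109561341), a binder of G-rich RNA that regulates exon choice, was either well counted or close to absent. Gir high 2 held 3066.5 estimated counts, Gir low 1 held 2552.9, Shweta Kapila high 1 held 1931.9 and Shweta Kapila low 3 held 2765.8. The other 8 libraries held between 0 and 12.9. The 4 libraries with a signal thus fall 1 in each group, at 167, 173, 122 and 158 CPM, and no library lay between 0.671 and 122 CPM. The count of 0 in Shweta Kapila low 2 allows up to 0.132 CPM, for counting error only. The standard deviation of log2 CPM over the 12 libraries was 4.32, the largest among the 15420 genes tested, against a median of 0.49.

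An unnamed identifier, 109561343, ran opposite to HNRNPH1; it was singled out after its values were seen, as the gene of most negative correlation with HNRNPH1 (Pearson r = −0.96 over 12 libraries, a description). It stood at 278, 281, 184 and 226 CPM in the 4 libraries with HNRNPH1 counts, in the order above. In the other 8 it stood at 489 to 874 CPM. The sum of both identifiers ran from 306 to 874 CPM, and the standard deviation of its log2 value was 0.41. Neither the files nor the gene table give 109561343 a name, and how the authors' counting divided reads between identifiers is unknown here. Fold changes of HNRNPH1 between groups rest on which cows hold the signal and are not read further.

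**Figure D1:**
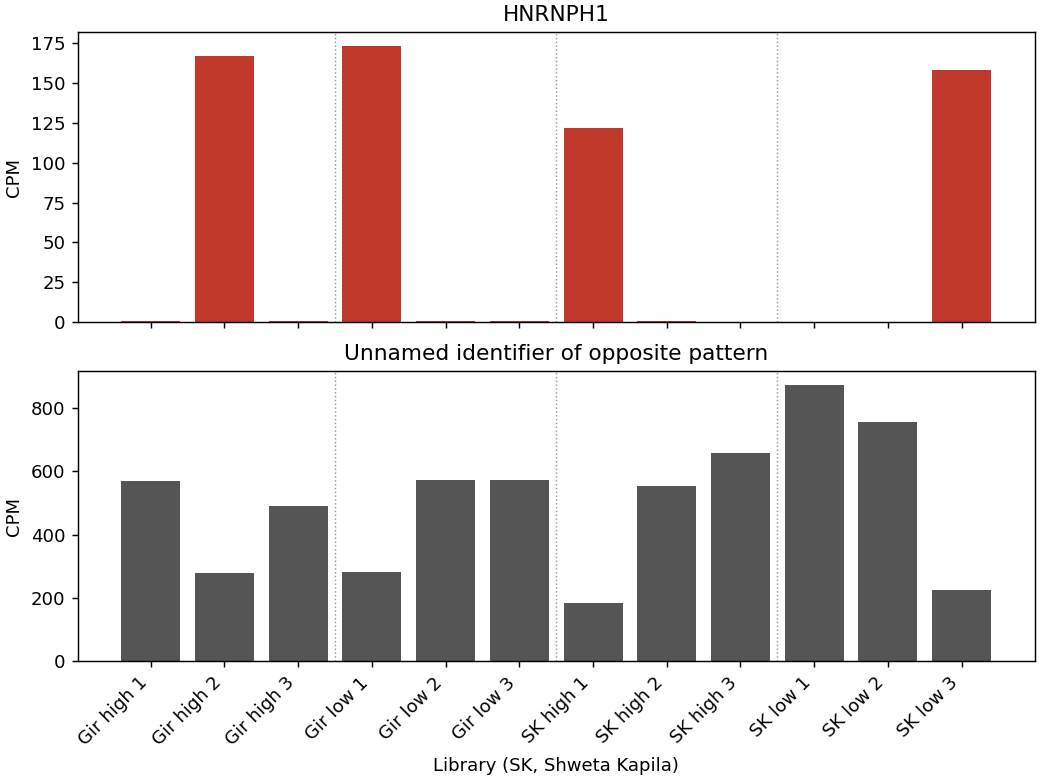
Bars give the CPM of HNRNPH1 (upper panel) and of the unnamed identifier 109561343 (lower panel) in each of the 12 libraries, with dotted lines between the 4 groups. HNRNPH1 is at 122 to 173 CPM in 1 library of each group and under 0.7 CPM in the rest, and the unnamed identifier is lowest in those same 4 libraries.

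Most members varied less between cows than the median gene tested. The median standard deviation of log2 CPM was 0.32 over the 59 members and 0.49 over all genes tested. Apart from HNRNPH1, members above that 0.49 included HNRNPLL (0.72), SF3B5 (0.65), SNRPG (0.62) and PRPF39 (0.62). The members also had more counts, with a median level of 130 CPM against 15.5 CPM, and low counts widen this spread. By family the median spread was 0.25 for SRSF, 0.28 for HNRNP, 0.34 for PRPF, 0.36 for SF3 and 0.43 for SNRP. The members together held between 1.13% (Shweta Kapila high 1) and 1.60% (Shweta Kapila low 2) of the counts of a library.

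The members with the highest CPM of their family, a measure that is not corrected for transcript length, are given here by cow. SRSF11, an SR-related protein, stood at 309, 287 and 213 CPM in Gir high and 237, 328 and 301 CPM in Gir low. In Shweta Kapila it stood at 301, 328 and 341 CPM in high-yielding and 406, 381 and 237 CPM in low-yielding cows, so the low-yielding group held both its highest value and its lowest. PRPF8, the core protein of the catalytic centre, stood at 282, 391 and 443 CPM in Gir high, 375, 349 and 432 in Gir low, 312, 236 and 358 in Shweta Kapila high and 386, 370 and 321 in Shweta Kapila low. SNRPB, the largest Sm protein, was at 79.3 to 140 CPM in Gir and 86.5 to 191 CPM in Shweta Kapila, with its highest value in Shweta Kapila high 1. SNRPF had the lowest CPM of all members, at 2.53 to 4.20 CPM in Gir and 3.51 to 7.09 CPM in Shweta Kapila, and the ranges of the breeds overlapped for each of these 4 genes.

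**Figure D2:**
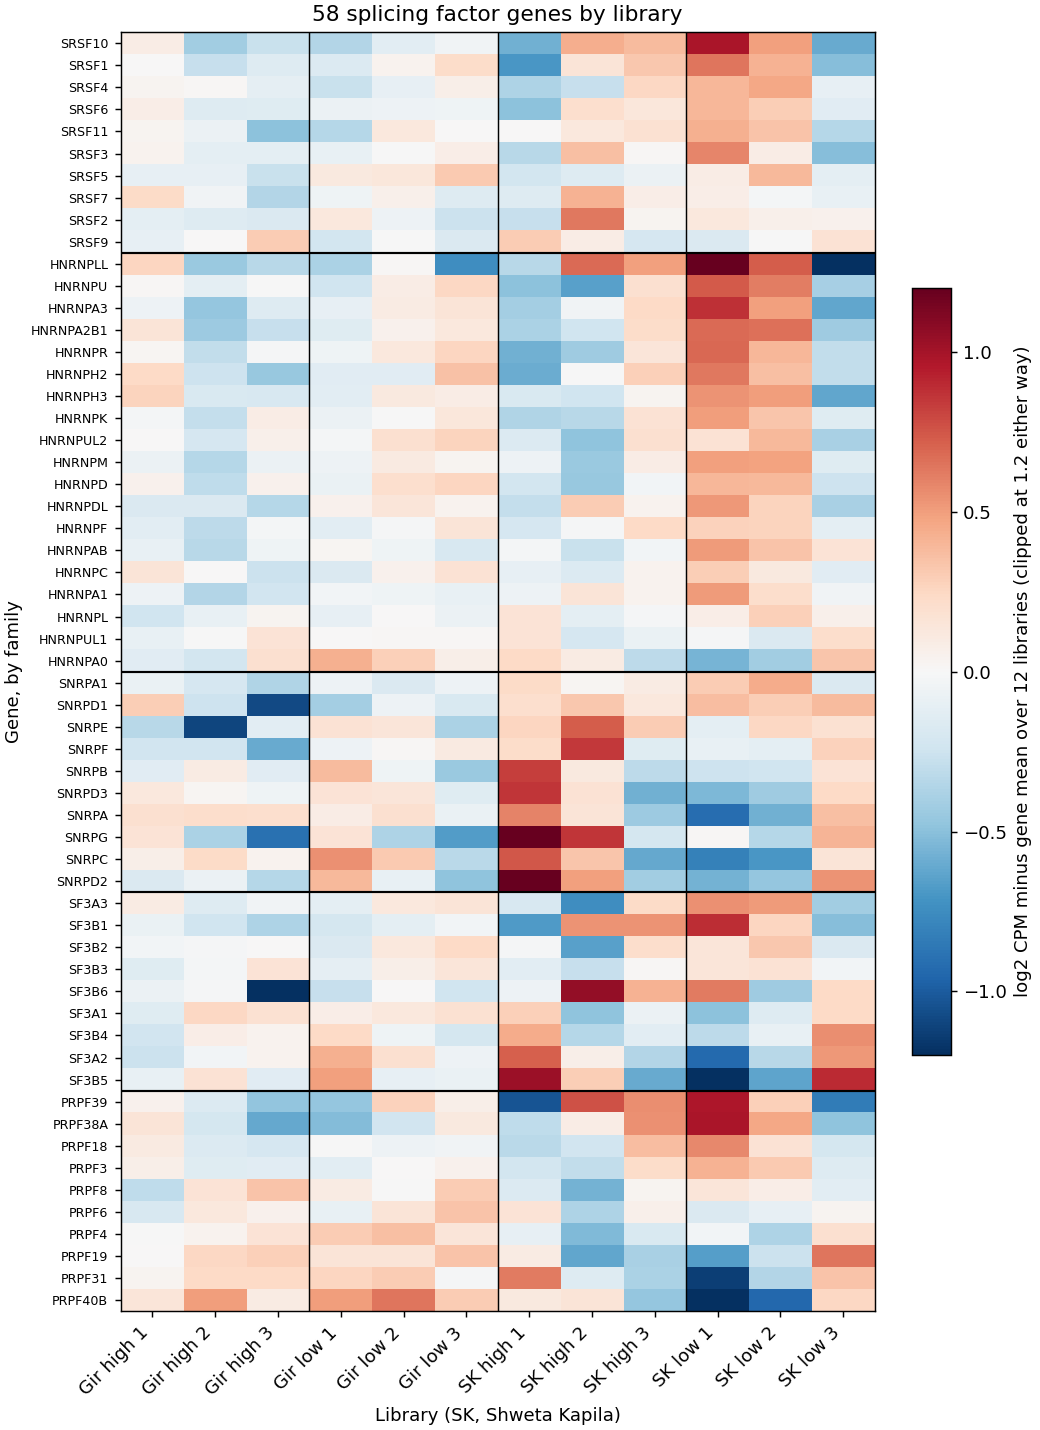
Each row is a splicing factor gene and each column a library, and the colour is log2 CPM minus the mean of that gene over the 12 libraries (red above, blue below). HNRNPH1 is left out, and genes are sorted within a family by the difference between the 3 Shweta Kapila libraries of over 22 M counts and the other 3. Strong colours are more frequent in the Shweta Kapila columns, though Gir high 3 is deep blue for SF3B6 (−1.26), SNRPD1 (−1.08) and SNRPG (−0.89) and Gir high 2 for SNRPE (−1.10). In Shweta Kapila most HNRNP and most SNRP genes are coloured in opposite directions.

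The widest spread lay among Shweta Kapila cows, where the 3 libraries of over 22 M counts stood apart. HNRNP genes were higher and SNRP genes lower in these 3 libraries, of 1 high-yielding and 2 low-yielding cows, than in the other 3 of the breed. In them the SNRP mean of log2 CPM, centred on each gene's mean, was −0.22, −0.26 and −0.19. These values lay inside the Gir range of −0.34 to 0.14. For 12 of 20 HNRNP genes these 3 libraries all lay above the other 3 Shweta Kapila libraries, and for 2 (HNRNPA0 and HNRNPH1) all below. For HNRNPH1 this rests on 0.411 CPM in high 3 against 0.533 CPM in high 2, and it carries no direction. For 7 of 10 SNRP genes all 3 lay below, and for 0 above. Over all genes tested the 3 libraries lay above the others for 21.4% and below for 24.6%. Among SRSF genes 4 of 10 lay above and 1, SRSF9, below. Among SF3 genes these counts were 3 and 2 of 9, and among PRPF genes 4 and 2 of 10. The 3 libraries also have the highest share of the short identifiers of the breed. Platelet markers, 5 of 6 measured and none at 0 in all libraries, summed to 77.3, 64.2 and 98.6 CPM in high 3, low 1 and low 2 and to 167, 128 and 116 CPM in high 1, high 2 and low 3. Among them GP9 was at 15.6, 8.67 and 13.3 CPM against 76.8, 48.2 and 42.8 CPM. ITGA2B also divided the sets, at 45.8, 32.2 and 52.8 CPM against 62.7, 55.0 and 58.8 CPM. PPBP did not, at 13.2, 20.9 and 23.7 CPM against 20.9, 21.8 and 9.42 CPM, and neither did TREML1 or GP1BA. The summed markers of the other 6 cell types listed did not divide these sets, though single markers among them did. VCAN of the monocyte list stood at 91.9, 105 and 89.9 CPM against 37.4, 28.2 and 31.2 CPM. CD5 of the T cell list stood at 167, 97.4 and 119 CPM against 337, 213 and 239 CPM. CD14 and CD2 of the same lists did not divide the sets. Single markers that divide stand beside the 21.4% and 24.6% of all genes given above. The part of depth, short identifiers, platelets or other cell types in the pattern was not tested.

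HNRNPA2B1, an exon silencer and RNA transport protein, stood at 1510, 2080 and 2050 CPM in Shweta Kapila high 3, low 1 and low 2. In Shweta Kapila high 1, high 2 and low 3 it stood at 995, 1100 and 962 CPM. The 6 Gir cows, at 960 to 1440 CPM, all lay below the upper set. HNRNPU, a scaffold protein of the nuclear matrix, divided the same Shweta Kapila sets, at 595, 869 and 800 CPM against 371, 332 and 395 CPM. Its Gir values ran from 442 to 619 CPM, so they overlapped the upper set. HNRNPA3 stood at 582, 906 and 693 CPM against 371, 478 and 320 CPM.

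The Sm protein SNRPD2 was at 44.1, 39.9 and 42.8 CPM in Shweta Kapila high 3, low 1 and low 2, where HNRNPA2B1 was high. In high 1, high 2 and low 3 it was at 136, 83.0 and 85.8 CPM. SNRPC, a protein of the U1 particle that helps to contact the 5′ splice site, was at 20.6, 18.0 and 19.4 CPM against 53.0, 39.8 and 35.1 CPM. SNRPA, which binds a stem-loop of U1 RNA, was at 18.6, 13.3 and 16.8 CPM against 38.0, 28.1 and 32.3 CPM. For all 3 genes the sets did not overlap, and each set held cows of both yield classes. Gir cows ran from 42.2 to 77.3 CPM for SNRPD2, from 25.2 to 46.2 CPM for SNRPC and from 23.8 to 29.1 CPM for SNRPA.

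Within SF3 and PRPF, members went either way. SF3B5, a small subunit of the branch point complex, was at 14.5, 9.20 and 14.3 CPM in high 3, low 1 and low 2 and at 45.3, 27.2 and 41.3 CPM in high 1, high 2 and low 3. SF3A3, another protein of the branch point particle, was at 97.0, 121 and 118 CPM against 72.5, 49.5 and 62.0 CPM. SF3B1, the subunit that clamps the branch point, did not divide in this way: Shweta Kapila high 2 (776 CPM) stood with high 3 (773), low 1 (986) and low 2 (639), above high 1 (332) and low 3 (374). In the 6 Gir cows SF3B1 stayed between 413 and 522 CPM, inside the Shweta Kapila range. PRPF39, a factor of the U1 particle, and SRSF10, an SR protein that represses splicing when dephosphorylated, placed high 2 in the upper set as well. PRPF39 was at 55.6, 48.3, 64.1 and 39.8 CPM in high 2, high 3, low 1 and low 2 and at 16.0 and 18.2 CPM in high 1 and low 3. SRSF10 was at 204, 196, 298 and 211 CPM against 101 and 99.3 CPM. This second division was described after the values were seen, and its share over the members or all genes was not counted.

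As a family mean of centred log2 CPM, SNRP genes stood at 0.64, 0.41 and −0.22 in Shweta Kapila high 1 to 3 and at −0.26, −0.19 and 0.25 in low 1 to 3. HNRNP genes without HNRNPH1 stood at −0.20, −0.15 and 0.10 in high 1 to 3 and at 0.46, 0.33 and −0.25 in low 1 to 3. SRSF genes stood at −0.28, 0.20 and 0.11 in high 1 to 3 and at 0.35, 0.25 and −0.22 in low 1 to 3. In Gir cows SNRP means ran from −0.34 to 0.14, HNRNP means from −0.25 to 0.07 and SRSF means from −0.18 to 0.02. SF3 means stayed between −0.15 and 0.16 and PRPF means between −0.18 and 0.16 over all 12 libraries. The mean over all genes tested moved between −0.08 and 0.05.

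**Figure D3:**
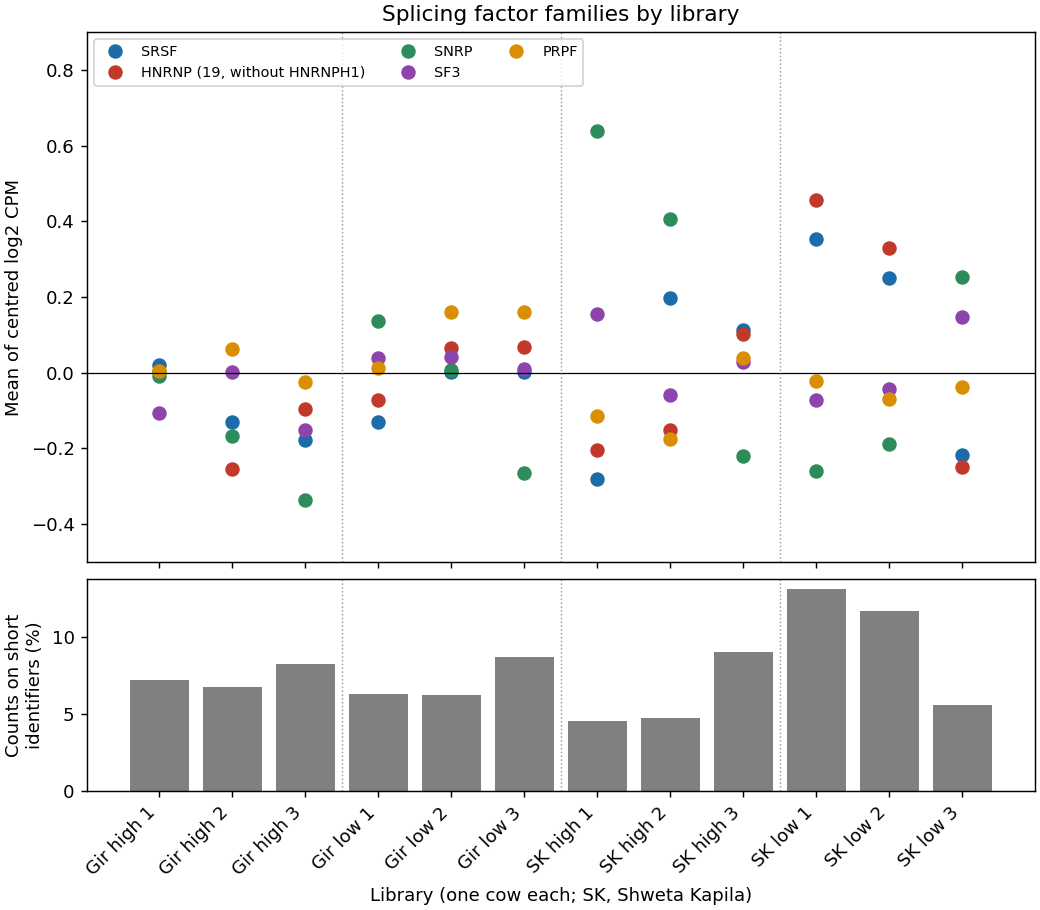
Points in the upper panel give, for each library, the mean over the members of a family of log2 CPM centred on each gene's mean (HNRNP without HNRNPH1), and bars in the lower panel give the percentage of a library's counts that fell on the 37 unnamed short identifiers. SNRP points lie highest in Shweta Kapila high 1 (0.64) and high 2 (0.41), and HNRNP points in Shweta Kapila low 1 (0.46) and low 2 (0.33), the libraries with the largest shares of short identifiers.

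In Gir cows most splicing factor genes were slightly lower with high yield, and none passed the test. Of 59 members 53 had a fold change below 0, against 52.6% of all genes tested. Their median was −0.09 on the log2 scale, against −0.02 over all genes, and −0.16 without Gir high 1. With 1 Gir cow left out, 42 to 48 of the 59 were lower. Among 131 further splicing genes outside these families, listed below, 88 were also lower in Gir high, with a median of −0.04. By family, 7 of 10 SRSF, 18 of 20 HNRNP, 9 of 10 SNRP, 9 of 9 SF3 and 10 of 10 PRPF genes were on the lower side. The families share the same 6 cows, so these counts are not independent. The HNRNP count includes HNRNPH1 (−0.05 ± 2.71 SE), whose value carries no direction. Without Gir low 1 only 4 of 10 SNRP genes were lower (median 0.06). edgeR's quasi-likelihood test with Benjamini-Hochberg adjustment over all genes called 0 members, where it called 0% of all genes, and 0 members had an unadjusted p under 0.05, against 1.89% of all genes. DESeq2 and limma-voom also called 0 members, and each called 0.00649% of all genes.

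SRSF5, an SR protein with paired RNA recognition motifs, had the lowest p in Gir. It stood at 194, 192 and 172 CPM in the high-yielding and at 224, 227 and 256 CPM in the low-yielding cows, so the groups did not overlap. Its log2 fold change was −0.34 ± 0.19 (SE; edgeR adjusted p = 1, unadjusted p = 0.0982). HNRNPDL, a paralogue of the AU-rich element binder HNRNPD, stood at 194, 195 and 173 against 227, 243 and 227 CPM (−0.31 ± 0.24). The groups also lay apart for HNRNPM (−0.18) and the Sm protein SNRPF (−0.38), again lower with high yield. In all 4 of 59 members separated on the lower side, against 5.06% of all genes, and 0 on the higher side, against 5.12%.

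The Sm protein SNRPE stood at 4.44 ± 1.45 against 6.18 ± 1.26 CPM in Gir high and low (mean ± SD, n = 3 each; log2 fold change −0.47 ± 0.32). SF3A2 of the branch point particle stood at 57.0 ± 5.93 against 69.1 ± 11.5 CPM, and PRPF4, a scaffold of the U4/U6 particle, at 46.6 ± 2.91 against 53.7 ± 4.19 CPM. On the higher side SRSF9 had the lowest p, at 50.7 ± 7.50 against 43.8 ± 3.53 CPM (0.21 ± 0.21, unadjusted p = 0.346 in edgeR's quasi-likelihood test). All of these differences were within about 2 SE. Monocyte markers, 5 of 7 measured, summed to 472 to 695 CPM in Gir high and 273 to 456 CPM in Gir low. Neutrophil markers, 6 of 8 measured, summed to 2640 to 4240 CPM against 2030 to 2630 CPM. Of the neutrophil markers only S100A9 lay apart, at 1050, 1180 and 992 CPM in Gir high against 694, 631 and 609 CPM in Gir low. CSF3R overlapped, at 1000, 2150 and 1820 CPM against 1380, 930 and 1230 CPM, and so did CXCR2, S100A8, MMP9 and LTF. No measured marker was at 0 in all libraries, and the part of either cell type in the splicing factor values was not tested.

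In Shweta Kapila cows HNRNP genes were lower and SNRP genes higher with high yield, again with no member past the test. Of 20 HNRNP genes 19 had a fold change below 0, with a median of −0.35 against −0.02 over all genes. HNRNPH1 (−0.36 ± 2.72 SE) is counted among the 19, but its value carries no direction. Of 10 SNRP genes 8 were above 0, with a median of 0.41. Over all genes 51.7% lay below and 48.3% above 0. SRSF genes had a median of −0.15, SF3 of −0.07 and PRPF of −0.22. edgeR called 0 members (lowest adjusted p = 0.655) where it called 0% of all genes, and DESeq2 called 0, beside 0.402% of all genes. Limma-voom with sample weights called 21 of the 59 (14 lower, 7 higher), beside 25.3% of all genes by the same tool. At an unadjusted p under 0.05 edgeR had 1 member, HNRNPAB, beside 6.98% of all genes.

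The HNRNP and SRSF directions depended on the 3 libraries of over 22 M counts. Without them, where a single low-yielding Shweta Kapila cow is left and is assumed to vary like the other groups, 10 of 20 HNRNP genes were lower and the HNRNP median was −0.01. SRSF then turned to 8 of 10 higher (median 0.23), while SNRP kept its direction, with 9 of 10 genes higher (median 0.32). SF3 (7 of 9) and PRPF (8 of 10) were also still lower. With the share of the short identifiers as a covariate 11 of 20 HNRNP genes were lower, 4 of 10 SNRP genes were higher and the SNRP median was −0.10. Single cows also moved these medians: without Shweta Kapila low 3 the HNRNP median was −0.55, SRSF −0.34, SNRP 0.64 and SF3 0.23. Without low 1 the HNRNP median was −0.18, SRSF 0.02 and PRPF −0.02, and without high 1 the SNRP median was 0.18 and SF3 −0.15.

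HNRNPAB, a nuclear and cytoplasmic RNA-binding protein, stood at 261, 220 and 258 CPM in Shweta Kapila high and at 377, 336 and 297 CPM in Shweta Kapila low. The groups did not overlap, and the log2 fold change was −0.45 ± 0.19 (SE; edgeR unadjusted p = 0.0341, adjusted p = 0.655). It was 1 of 59 members separated on the lower side, against 3.70% of all genes. The only member separated on the higher side was SNRPE, against 3.51% of all genes, at 7.41, 10.3 and 7.66 CPM against 5.69, 7.36 and 7.02 CPM. Among the Sm genes SNRPG had the largest fold change, at 20.3, 15.4 and 7.28 against 8.49, 6.62 and 11.2 CPM, so high 3 and low 3 overlapped the other class.

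SNRPC stood at 37.8 ± 16.3 against 24.2 ± 9.51 CPM in Shweta Kapila high and low (mean ± SD, n = 3 each; log2 fold change 0.65 ± 0.37). SRSF4, an SR protein with a long arginine-serine tail, stood at 84.6 ± 20.5 against 110 ± 22.1 CPM (−0.38 ± 0.23). SF3A3 stood at 73.0 ± 23.7 against 100 ± 33.3 CPM (−0.46 ± 0.29) and SF3A2 at 69.9 ± 26.7 against 55.3 ± 28.3 CPM (0.34 ± 0.36), so these subunits of 1 particle lay on opposite sides in this fit. Without the 3 largest libraries SF3A3 was at −0.03 and SF3A2 at −0.10, both below 0, and with the share covariate both signs turned (0.09 and −0.27). PRPF40B, a U1-associated factor, stood at 11.3 ± 2.53 against 8.12 ± 4.93 CPM (0.48 ± 0.38), and PRPF3, a protein of the U4/U6 particle, at 76.9 ± 15.3 against 94.3 ± 18.9 CPM (−0.29 ± 0.22). T cell markers, 9 of 9 measured, summed to 3610 to 5260 CPM in Shweta Kapila high and 2080 to 3200 CPM in Shweta Kapila low. NK and cytotoxic markers, 6 of 8 measured, summed to 971 to 1660 CPM and 342 to 1080 CPM. Their part in these values was not tested.

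**Figure D4:**
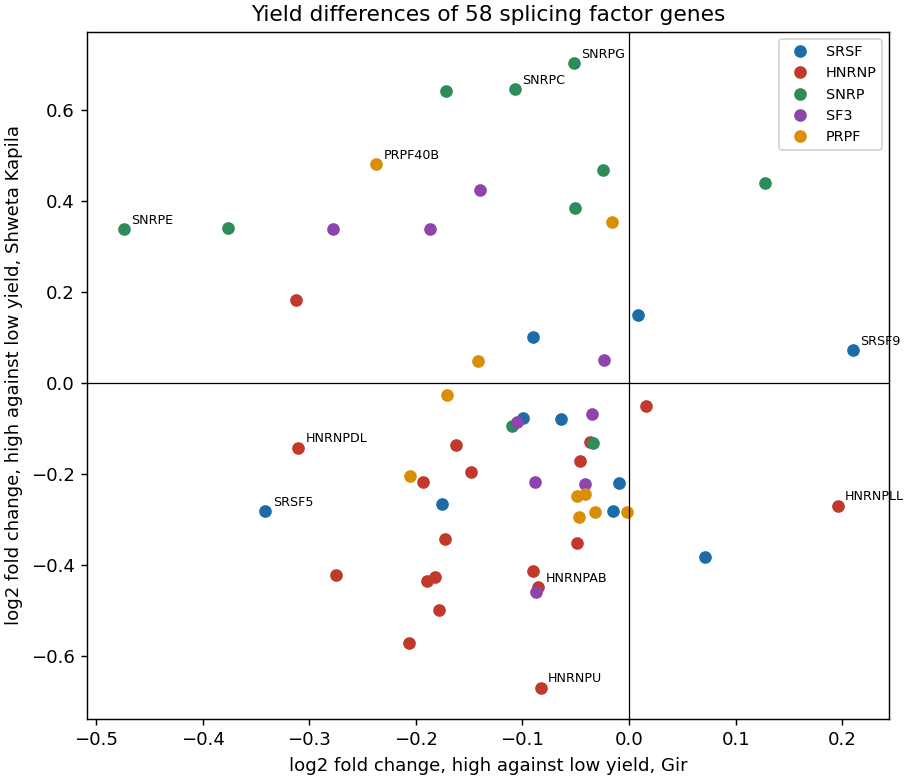
Each point is a splicing factor gene other than HNRNPH1, with its log2 fold change for high against low yield in Gir on the x axis and in Shweta Kapila on the y axis, coloured by family. Nearly all points lie left of 0 in Gir, and SNRP points lie mostly above 0 and HNRNP points below 0 in Shweta Kapila.

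Over both breeds all 20 HNRNP genes were on the lower side with high yield, beside 51.5% of all genes tested (median −0.22, against −0.01 over all genes). This count includes HNRNPH1 (−0.21 ± 1.92 SE), whose value carries no direction. Without the 3 largest libraries 16 of 20 HNRNP genes were lower, with a median of −0.07. SRSF5 had the lowest p of all members, at −0.31 ± 0.14 (SE; edgeR unadjusted p = 0.0388, adjusted p = 0.874), the only member with an unadjusted p under 0.05, beside 4.13% of all genes. In Shweta Kapila SRSF5 stood at 178, 185 and 197 CPM in high-yielding and at 219, 271 and 190 CPM in low-yielding cows, so 1 low-yielding cow fell inside the high-yielding range. HNRNPR, a partner of the survival motor neuron protein, was at −0.39 ± 0.19, SF3A3 at −0.27 ± 0.21 and PRPF4 at −0.20 ± 0.15. On the higher side SNRPA was at 0.28 ± 0.24. edgeR and DESeq2 called 0 members, where edgeR called 0% and DESeq2 0.0259% of all genes. Limma-voom called 8, all lower, beside 8.15% of all genes.

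No member passed the test of whether the yield difference itself differed between the breeds (edgeR 0 calls, lowest adjusted p = 0.955; 0 members with an unadjusted p under 0.05, beside 3.81% of all genes). DESeq2 also called 0, beside 0.0584% of all genes, and limma-voom 3, beside 8.48%. SNRP genes had the widest gap, with a median of −0.60 when the Shweta Kapila difference was subtracted from that in Gir, and 9 of 10 members below 0, beside 49.1% of all genes. With the share of the short identifiers as a covariate the SNRP median was 0.09, with 6 of 10 above 0, and without Shweta Kapila high 1 it was −0.23. SNRPE was at −0.81 ± 0.46 (SE). HNRNPA0 (−0.50 ± 0.38), SF3A2 (−0.62 ± 0.50) and PRPF40B (−0.72 ± 0.53) were also below 0. SRSF4 (0.45 ± 0.32), HNRNPAB (0.36 ± 0.27), SF3A3 (0.37 ± 0.41) and PRPF3 (0.25 ± 0.31) were above 0. HNRNP genes had a median of 0.21, which was 0.41 without Shweta Kapila low 3, 0.11 without low 1 and −0.12 without the 3 largest libraries, and the SNRP median was then −0.46.

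Between the breeds no splicing factor gene passed the test, and the share of members at a low unadjusted p was no larger than that of all genes. edgeR called 0 members (lowest adjusted p = 0.474) where it called 0% of all genes, and DESeq2 called 0, beside 1.26% of all genes. At an unadjusted p under 0.05 stood 5 of 59 members, beside 9.57% of all genes. Of these, SNRPD1, SNRPE, SNRPG and SF3B6 were lower in Gir, beside 5.79% of all genes, and PRPF40B was higher, beside 3.78%. The Sm protein SNRPD1 stood at 25.4, 17.4 and 9.71 CPM in Gir high, 15.6, 19.9 and 18.2 in Gir low, 23.7, 25.9 and 22.5 in Shweta Kapila high and 26.7, 25.4 and 26.9 in Shweta Kapila low. Except for Gir high 1, every Gir cow lay below every Shweta Kapila cow, and the log2 fold change for Gir against Shweta Kapila was −0.51 ± 0.21 (SE; edgeR adjusted p = 0.484).

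SNRPG, at 4.49 to 9.47 CPM in Gir and 6.62 to 20.3 CPM in Shweta Kapila, was at −0.69, and SNRPE was at −0.52. The 10 SNRP genes had a median of −0.34, beside −0.04 over all genes tested, with 7 of 10 lower in Gir, beside 54.9% of all genes. Without the 3 largest libraries all 10 were lower (median −0.45), and without Shweta Kapila high 1 the median was −0.20. SF3B6, which touches the branch point adenosine, stood at 15.5 ± 6.33 and 17.6 ± 1.92 CPM in Gir high and low and at 28.8 ± 11.3 and 22.8 ± 7.93 CPM in Shweta Kapila high and low (mean ± SD, n = 3 each; −0.64 ± 0.27). SNRPC had the lowest p on the higher side of its family, at 0.23 ± 0.26.

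PRPF40B stood at 12.8, 16.4 and 12.4 CPM in Gir high and 16.5, 18.2 and 14.4 CPM in Gir low. In Shweta Kapila it stood at 12.6, 13.0 and 8.40 CPM in high-yielding and 4.62, 5.98 and 13.8 CPM in low-yielding cows, with the 3 lowest values in the 3 largest libraries. The log2 fold change was 0.65 ± 0.26 (SE; edgeR unadjusted p = 0.0288, adjusted p = 0.474). Without Shweta Kapila low 3 it was 0.96 and passed (edgeR adjusted p = 0.0297), when 2.84% of the genes tested did. No member separated the 6 Gir from the 6 Shweta Kapila cows, where 0.266% of all genes did on the higher and 0.337% on the lower side.

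SRSF genes were lower in Gir for 9 of 10 members (median −0.15, and −0.23 without Shweta Kapila low 3), among them SRSF10 at −0.46 ± 0.26, but without the 3 largest libraries 7 of 10 were higher and SRSF10 was at 0.12. HNRNPLL, which in human and mouse T cells represses variable exons of CD45, was at −0.72 ± 0.36 and at 0.27 without those libraries. PRPF38A, a factor of spliceosome activation, was at −0.48 ± 0.25 and at 0.11 without them. HNRNPLL ran from 13.9 to 27.8 CPM in Gir and from 9.70 to 58.3 CPM in Shweta Kapila, where low 1 was highest and low 3 lowest. HNRNPH1 was the member of lowest p on the higher side of its family only because the others there differed by under 0.2, and its value of 0.30 ± 1.92 carries no direction. Limma-voom called 11 members for breed (8 lower, 3 higher in Gir), beside 16.6% of all genes.

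**Figure D5:**
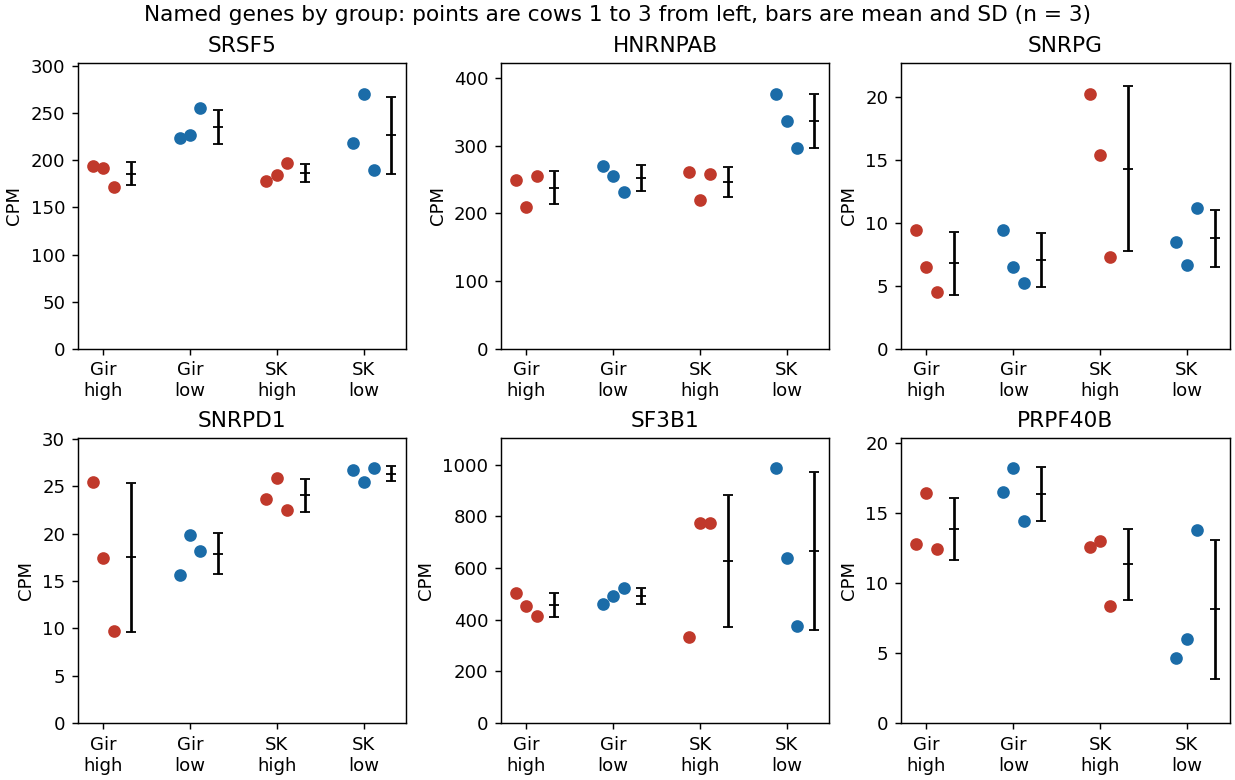
Points are the CPM of 6 named genes in each cow (red, high yield; blue, low yield), and the bar beside each group is its mean and SD (n = 3). SRSF5 is lower in all 3 Gir high than in all 3 Gir low cows, HNRNPAB is higher in the 3 Shweta Kapila low cows than in the high cows, and the spread of SNRPG, SF3B1 and PRPF40B is widest in Shweta Kapila.

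A list of 136 further splicing genes outside these families had 131 members past the filter, and edgeR called 0 of them in any comparison. At an unadjusted p under 0.05 there were 1 of the 131 for yield in Gir (lower), beside 1.89% of all genes, and 5 in Shweta Kapila (2 higher, 3 lower), beside 6.98%. There were 1 over both breeds (lower), beside 4.13%, 2 for the difference between breeds (both below 0), beside 3.81%, and 7 for breed (2 higher and 5 lower in Gir), beside 9.57%. The yield groups of Gir lay apart for 3 of the 131 on the higher side, beside 5.12% of all genes, and for 6 on the lower side, beside 5.06%. Those of Shweta Kapila lay apart for 3 on the higher side, beside 3.51%, and for 4 on the lower side, beside 3.70%. RBM3, a cold-inducible RNA-binding protein, stood at 36.5, 44.4 and 33.3 CPM in Gir high and 62.7, 69.2 and 56.9 CPM in Gir low, so those groups did not overlap. In Shweta Kapila it stood at 66.3, 105 and 48.6 CPM against 51.4, 40.1 and 50.5 CPM. Its yield difference was lower in Gir than in Shweta Kapila by −1.35 ± 0.39 (SE; edgeR unadjusted p = 0.00406, adjusted p = 0.955), and DDX20, a helicase of the assembly complex, had the lowest p on the other side (0.72 ± 0.37).

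PHF5A, a further subunit of the branch point complex, was higher in all 3 high-yielding Shweta Kapila cows at 20.1, 27.9 and 20.7 against 15.4, 13.2 and 12.0 CPM (0.76 ± 0.25, edgeR adjusted p = 0.655). GEMIN5, which delivers small nuclear RNAs to the Sm assembly machinery, was lower in them at 11.8, 11.1 and 16.9 against 22.4, 20.1 and 20.3 CPM (−0.65 ± 0.25). Over both breeds TAF15, an RNA-binding protein, was at −0.38 ± 0.16 and PHF5A at 0.27 ± 0.18. In Gir the peptidyl-prolyl isomerase PPIL1 was at 0.24 ± 0.20 and RBM3 at −0.72 ± 0.27. Between the breeds the genes of lowest p on each side were MAGOHB, lower in Gir (−0.77 ± 0.24), and CASC3, higher (0.33 ± 0.13), both genes of the exon junction complex. In the 3 Shweta Kapila libraries of over 22 M counts, 43 of the 131 further genes lay above the other 3 libraries and 25 below, beside the 21.4% and 24.6% of all genes given above. Proteins of the U1, U2, U5 and U4/U6 particles divided as 8 above and 10 below of 35. Genes of the catalytic complex and helicases had 11 above and 2 below of 24, SR-like proteins, kinases and exon junction genes 8 and 2 of 22, and other regulators 13 and 4 of 30. The assembly genes had 2 above and 5 below of 12, and those of the minor spliceosome 1 and 2 of 8.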

How the data were processed

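Total RNA from blood of 12 cows was sequenced with strand-specific libraries after removal of ribosomal RNA, per the labels' protocols. The authors deposited 1 column of expected counts for each cow, unscaled, and 57.0% of the values were not whole numbers (tolerance 1e-06). The submitters' processing notes name Trimmomatic and FastQC. Which aligner, counting program, strand setting and genome build were used is not given in the sources used here, so reads of near-identical copies, overlapping or antisense genes may be split in unknown ways, which bears on HNRNP and SNRP genes in particular, and no coordinates are given. Symbols were matched by identifier to a RefSeq gene table of the assembly NIAB-ARS_B.indTharparkar_mat_pri_1.0 (22754 identifiers, 86.8%). No sequences are shown.

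Rounded counts were fitted with edgeR 4.0.16 (R 4.3.3): filterByExpr by group (minimum count 10, minimum total 15), TMM scaling and a robust quasi-likelihood fit of 4 group means over all 12 libraries, which share an estimate of the spread (common biological coefficient of variation 0.381). Tests were 2-sided with Benjamini-Hochberg adjustment over 15420 genes at 0.05. For 5 comparisons, high was set against low yield within each breed, the 2 differences were averaged and subtracted, and Gir was set against Shweta Kapila. Gir and Shweta Kapila yield differences share no cows, but the last 3 comparisons reuse them. Each SE was computed back from the test, as the absolute log2 fold change divided by the square root of edgeR's quasi-likelihood F statistic. Log2 CPM used a prior count of 2. The filter uses the same CPM cutoff in every library, set by the minimum count of 10 at the median library size. A count of 10 is 0.368 CPM in the largest library and 0.704 CPM in the smallest, and the cutoff lies between these.

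Named genes were, per comparison and family, the member of lowest p on each side with an absolute log2 fold change of at least 0.2, and for levels those of highest or lowest CPM or widest spread; SNRPD2, HNRNPU, HNRNPA3, SNRPA in Shweta Kapila, PRPF39 and the members whose groups lay apart were added after their values were seen. The members and lists were chosen with earlier results of these data known. No library was a copy of another: chi-square values per degree of freedom between cows of a group were 32.5 to 364. DESeq2 1.42.0 and limma 3.58.1 were alternatives. The procedure was run on simulated data whose planted changes were larger than any member fold change in the fit to all 12 libraries. That run cannot say whether differences of the size reported here would be called. Plots used matplotlib 3.10.9.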

Additional observations from a re-analysis of the deposited data

How the results depend on the processing

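Member calls were 0 in all 5 comparisons under each alternative tried (DESeq2, other scalings, no filter, covariates, libraries left out, replicate block), with these exceptions. Limma-voom with sample weights called 21 members for yield in Shweta Kapila, 8 over both breeds, 3 for the difference between breeds and 11 for breed, and leaving out single libraries gave 0 to 1 for breed. The replicate numbers are those of separate cows and do not pair them (correlations of same-numbered libraries −0.558 to 0.339), and with the replicate block the member calls stayed at 0. The member median for yield in Shweta Kapila, −0.143, became −0.011 with the share of the short identifiers as a covariate and 0.013 without the 3 largest libraries, and ran from −0.283 to −0.063 with single libraries left out. For the difference between breeds, 0.049 became −0.118 and −0.148 under those settings, and for breed −0.113 became 0.061 without the 3 largest libraries. The cause was not tested.

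With the share covariate the sign turned for SNRPC (−0.103), SF3A2 (−0.269), SF3A3 (0.093), PRPF40B (−0.111) and PRPF3 (0.030) in Shweta Kapila, and for SF3A3 (−0.220), SF3A2 (0.062) and PRPF3 (−0.100) in the difference between breeds. Without the 3 largest libraries it turned for SF3A2 (−0.098) and PRPF40B (−0.105) in Shweta Kapila, SF3A3 (−0.058) in the difference, and for breed SRSF10 (0.121), HNRNPLL (0.265), SNRPC (−0.174), PRPF38A (0.108) and HNRNPH1 (−0.772). With the total count as a covariate it turned for breed in SNRPC (−0.065) and HNRNPH1 (−1.182), and HNRNPH1 ran from −3.024 (without Gir low 1) to 6.801 with single libraries left out, and was at −2.876 without Gir high 2. HNRNP family means moved beyond the spread between cows when HNRNPH1 was left out, a choice made after seeing the data: to −0.254 and −0.071 in Gir high 2 and low 1, and to −0.204, 0.456, 0.330 and −0.250 in Shweta Kapila high 1, low 1, low 2 and low 3. A prior count of 0.5 moved no family mean beyond that spread. SNRPF and SNRPE, at 2.53 to 10.3 CPM, had the lowest mean CPM of the members and rest on few counts. Family counts and medians without single libraries, without the 3 largest or with the share covariate were also computed after seeing the data.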
